A study of Homo sapiens with 64 samples.

Results

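The genes described here are TSLP, IL33, IL18, IL1A, IL1B, IL1RN, IL1R1, IL1R2, IL1RL1 and CSF2, the alarmin cytokines of the airway epithelium with ligands, an antagonist and receptors of the interleukin-1 family. They were taken by name, and where several probe sets carried a gene's symbol and no other, the brightest on average over the 64 arrays was used. Of the 10 genes, 9 had such a probe set, 19 probe sets in all out of 49395, and these 9 are among 18132 genes tested. CSF2, which encodes the growth factor GM-CSF, had no probe set under its symbol in the annotation used and was not analysed here.

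RNA came from BEAS-2B, a human bronchial epithelial cell line that was immortalised with viral genes, kept overnight without serum in every group. Cells received budesonide at 100 nM, an inhaled glucocorticoid, formoterol at 10 nM, a long-acting agonist of the beta2-adrenoceptor, both drugs together at those doses, or no drug. Exposure lasted 1, 2, 6 or 18 h, and each of the 16 groups had 4 arrays. The labels call the 4 replicates independent determinations, and the p-values below reflect only how these samples spread. Values are log2 expression, so a difference of 1 is a doubling, and the array medians lay between 4.87 and 4.95. Of 8 bronchial epithelial markers 4 lay above the median of all values, among them KRT18 at 10.97 and KRT8 at 9.18, whereas EPCAM lay near the bottom of the scale in all groups. Of 6 leukocyte markers PTPRC, CD14 and LYZ lay below 3.02, a guide to background given below, in all groups, ITGAM in 11 of 16 groups and CD3E (3.49) and CD68 (5.75) in none. Of 5 mesenchymal markers COL1A1 and PDGFRB averaged 8.35 and 8.68, COL1A2 and ACTA2 averaged 4.61 and 4.31, and DCN lay below 3.02 in all groups. The line is a cell culture without immune cells, so it can show what an epithelial cell transcribes but not what the released cytokines do.

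Alarmins are cytokines that epithelial cells release on injury, infection or allergen contact and that act on innate lymphoid cells, mast cells and dendritic cells. TSLP signals through CRLF2 and IL7R, IL33 through IL1RL1 with IL1RAP, and IL1A and IL1B through IL1R1 with IL1RAP. IL18 and IL1B are made as precursors that CASP1 cuts, IL1RN blocks IL1R1, and IL1R2 is a decoy that binds ligand without signalling. IL1RL1, also called ST2, is made as a membrane receptor and as a shorter secreted form that binds IL33 and keeps it from the receptor. Variants near TSLP, IL33 and IL1RL1 are among the best known genetic associations of asthma.

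Most of these genes were dim. No detection calls were used here, so the lower quartile of all values, 3.02, served as a guide to background, and a rise from a group below it is written as at least that size. IL33 and IL1R2 lay below 3.02 in all 16 groups and cannot be told from background. IL33 had group means of 1.86 to 2.10, and IL1R2 of 2.03 to 2.24. IL1A lay below 3.02 in 15 groups, IL1R1 in 11 and IL1RL1 in 4. TSLP, IL1B, IL1RN and IL18 lay above it in every group. Of these, IL18 was the bright one, with group means of 8.70 to 9.33. The guide is lenient, since 21 genes restricted to other tissues, such as liver or retina, had a 95th percentile of 4.63. By that bound, and by the median of all values at 4.90, 7 of the 9 genes lay at background in all 16 groups, and the exceptions were IL18, above both everywhere, and IL1RL1, above both only with both drugs at 6 h.

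**Figure D1:**
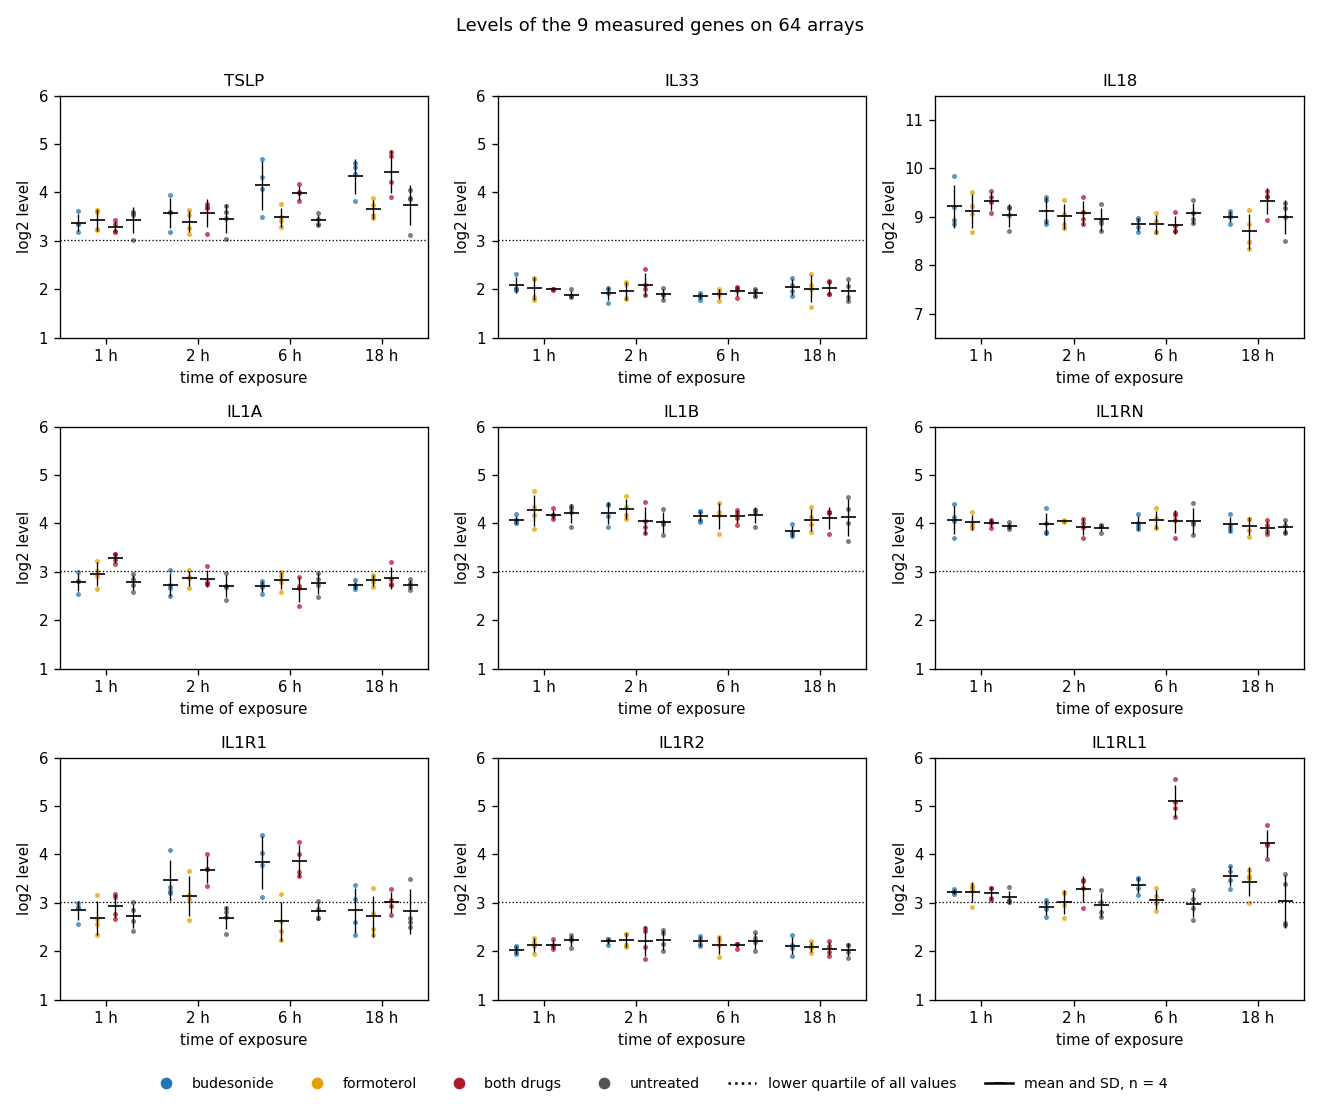
Log2 expression (y axis) of the 9 measured genes against time of exposure (x axis, hours) for budesonide, formoterol, both drugs and untreated cells. Coloured points are single arrays, black bars the mean and SD of 4 arrays and the dotted line the lower quartile of all values, 3.02 (the IL18 panel has a higher axis); IL1RL1 stands out with both drugs at 6 h, where its mean was 5.10.

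The first question was which genes each drug changed. The genes that rose were TSLP, IL1R1, IL1RL1 and IL1A against untreated cells and IL18 against formoterol, and every change that passed was a rise. Over 9 genes and 4 times, budesonide changed 5 of 36 pairs of gene and time, against 9.38% of pairs over all genes. Formoterol changed 0 of 36 pairs in limma's test (2.97% over all genes), and 1 pair, IL1RL1 at 18 h, had an unadjusted p under 0.05. Both drugs together changed 7 of 36 pairs (13%). The combination differed from budesonide alone in 3 of 36 pairs (3.3%) and from formoterol alone in 5 of 36 (9.11%). With the replicate block, IL1R1 at 2 h (limma, adjusted p = 0.00712) and TSLP at 6 h (0.0226) also passed against formoterol. No test set these shares apart from those of all genes. Over the 6 kinds of drug comparison 21 of 216 tests were higher and 0 were lower by limma, with 28 higher and 1 lower at an unadjusted p under 0.05. Over all genes the share called in either direction ran from 0.44% for the interaction to 13% for both drugs against untreated cells. These comparisons share groups, so the counts are not independent. The split of rises and falls over all genes is not given here. By the stricter guides 7 of the 9 genes lay at background in every group, and whether this hid falls was not tested. The lack of falls is therefore not read as a result.

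By time, budesonide changed 0, 1, 2 and 2 of the 9 genes at 1, 2, 6 and 18 h, where 0.998%, 3.94%, 14.2% and 18.3% of all genes were called. Formoterol changed 0 of 9 at each time in the fit without a block, where 1.34%, 4.6%, 4.81% and 1.11% were called. Both drugs changed 1, 1, 3 and 2 genes, where 2.76%, 9.49%, 18.6% and 21% were called. Set against budesonide, the combination differed in 1, 0, 1 and 1 genes (1.47%, 4.38%, 6.72% and 0.651% of all genes), and against formoterol in 0, 0, 2 and 3 genes (1.27%, 4.15%, 13.4% and 17.6%). The interaction of the drugs passed for 0, 0, 1 and 0 genes (0.171%, 0.59%, 0.722% and 0.276%). The median difference over the 9 genes lay between -0.05 and 0.18 in the 24 drug comparisons, where the median over all genes lay between -0.03 and 0.03. In untreated cells 0 of 27 tests against 1 h passed in limma, where 0.197% of all pairs were called, and 0 had an unadjusted p under 0.05.

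**Figure D2:**
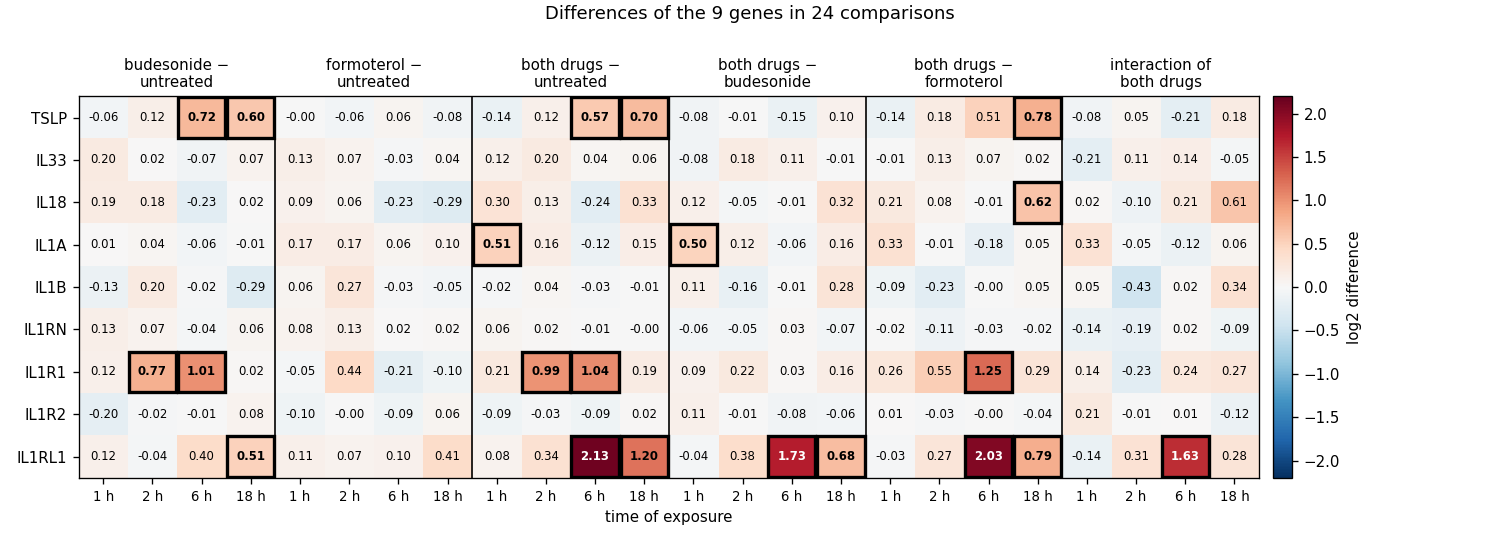
Log2 differences (colour, and the number in each cell) of the 9 genes (rows) at 1, 2, 6 and 18 h (columns) in the 6 kinds of drug comparison, with a frame and bold type where the adjusted p was under 0.05. The 21 framed cells are all positive, and the largest is IL1RL1 with both drugs minus untreated cells at 6 h, 2.13. Over all genes 0.44% to 13% of pairs were called, by kind of comparison.

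IL1RL1, the receptor of IL33, changed most. At 6 h its level was 4.78, 4.97, 5.09 and 5.56 with both drugs. It was 3.51, 3.50, 3.31 and 3.16 with budesonide and 3.13, 3.30, 2.83 and 3.002 with formoterol, against 2.90, 2.64, 3.07 and 3.26 in untreated cells. All 4 arrays with both drugs lay above all 12 others, while the ranges of the other 3 groups overlapped. Both drugs together stood at least 2.13 ± 0.17 above untreated cells (SE, 95% interval 1.78 to 2.48, adjusted p = 8.87e-16), at least 4.38-fold. They stood 1.73 above budesonide (adjusted p = 1.78e-11, 3.31-fold) and 2.03 above formoterol (adjusted p = 8.71e-15). Neither drug alone passed at 6 h, with differences from untreated cells of 0.40 for budesonide (adjusted p = 0.128) and 0.10 for formoterol (adjusted p = 0.922).

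The interaction asks whether both drugs together exceed the sum of their separate log2 effects. For IL1RL1 at 6 h it was 1.63 ± 0.25 (SE, 95% interval 1.13 to 2.12, adjusted p = 1.63e-05), the 1 interaction that passed among 36 for these genes, where 0.44% of all pairs were called. On the linear scale of the group means the combination added 27.07 units to untreated cells, budesonide 2.48 and formoterol 0.53, an excess of 24.07 over the sum. The untreated mean was below 3.02, so the separate effects and the interaction rest in part on values at background, and its part in their size was not tested.

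At 18 h the level was lower again but still raised with both drugs. It was 3.91, 4.20, 4.60 and 4.21 with both drugs, 3.48, 3.76, 3.66 and 3.29 with budesonide and 3.51, 3.56, 2.99 and 3.69 with formoterol. Untreated cells had 3.39, 3.60, 2.58 and 2.55, the widest spread of the 4 groups, with 2 arrays near the other treatments and 2 below them. Both drugs exceeded untreated cells by 1.20 ± 0.17 (SE, adjusted p = 1.11e-07, 2.30-fold) and cells given formoterol by 0.79 (adjusted p = 0.00037). Budesonide also passed at 18 h, by 0.51 (adjusted p = 0.0286), but the call was lost without untreated replicate 3 (0.37) or 4 (0.35) and without budesonide replicate 2 (0.44) or 3 (0.48). The lead of both drugs over budesonide, 0.68 (adjusted p = 0.0379), was lost without budesonide replicate 1 (0.66), 3 (0.72) or 4 (0.60) and without combination replicate 2 (0.69), 3 (0.56) or 4 (0.69). Formoterol differed from untreated cells by 0.41 at 18 h (adjusted p = 0.343) and the interaction was 0.28 (adjusted p = 0.838). At 1 and 2 h no group mean exceeded 3.29. The effect of both drugs differed between the 4 times (moderated F test, adjusted p = 7.47e-10), as 22.6% of all genes did, and so did the interaction (adjusted p = 0.0141), as 0.309% did.

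IL1RL1 had 5 probe sets, and they did not all move. One, built on the transcript record of the secreted form, read 4.92, 6.06, 5.66 and 5.49 with both drugs at 6 h. Its means were 2.80 ± 0.06 with budesonide, 2.44 ± 0.20 with formoterol and 2.69 ± 0.12 in untreated cells (SD, n = 4 each), all below 3.02. In a fit of all 44994 probe sets with 1 symbol, where 14% were called for both drugs at 6 h, its rise over untreated cells was at least 2.84 (adjusted p = 2.03e-21) and its interaction 2.99 (adjusted p = 1.07e-13, with 0.449% called). At 18 h it stood at least 1.33 above untreated cells (adjusted p = 2.28e-09, with 15.6% called), with means of 3.73 with both drugs, 3.06 with budesonide, 2.65 with formoterol and 2.41 in untreated cells. A pair of probe sets with the same values on every array, counted once, also rose at 6 h, to 4.69 with both drugs against 2.56 in untreated cells.

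The remaining probe set, built on the transcript record of the membrane receptor, read 3.11, 3.26, 2.81 and 2.98 with both drugs at 6 h. Its untreated mean was 3.11 ± 0.06 (SD, n = 4), so both drugs gave -0.07 (95% interval -0.28 to 0.13, adjusted p = 0.804) and the groups overlapped. Its 16 group means lay between 3.01 and 3.34, and of 24 drug comparisons 0 passed in limma and 3 had an unadjusted p under 0.05. Its levels lay at the guide to background, so they say nothing of the level of the membrane form. The rise of IL1RL1 is a measurement of the 3 distinct probe sets that moved, not of every transcript.

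**Figure D3:**
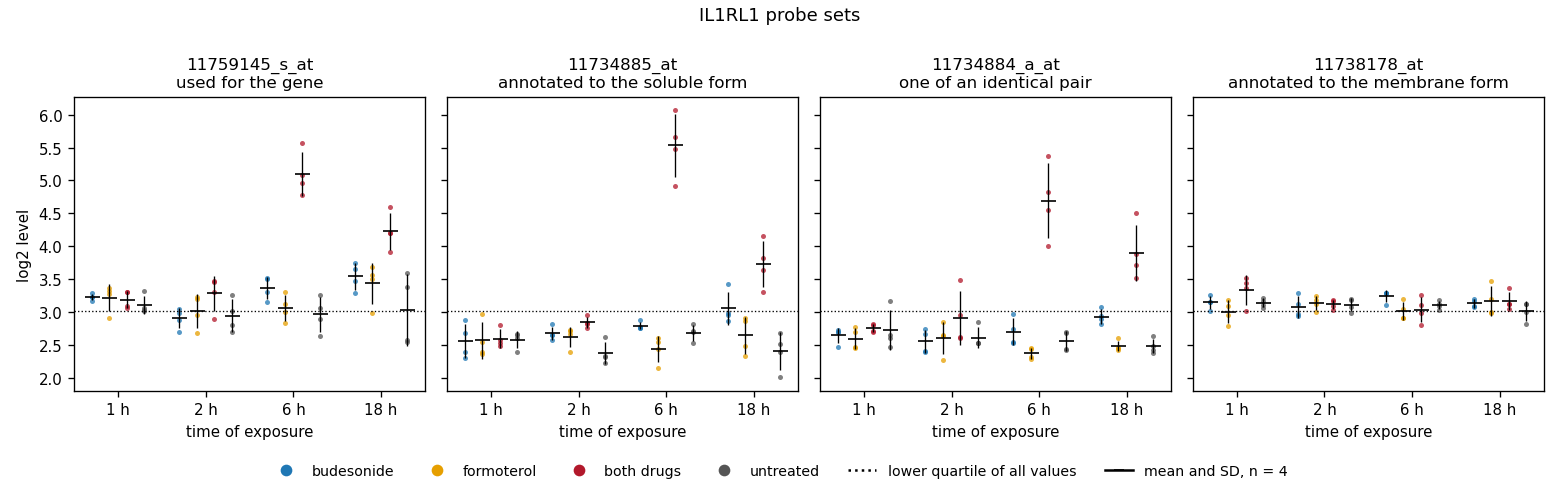
Log2 expression (y axis) of the 4 distinct IL1RL1 probe sets against time of exposure (x axis, hours), with coloured points for single arrays in the 4 treatments and black bars for the mean and SD of 4 arrays. The probe set built on the secreted form averaged 5.53 with both drugs at 6 h, and the one built on the membrane form had group means between 3.01 and 3.34.

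The gene lies on chromosome 2 at chr2:102311563-102352356 (GRCh38.p14, plus strand) and has start sites far apart. They are shown because probe sets built on different transcript records of this gene did not move alike. Which start a probe set reads was not tested. RefSeq gives the following 250 bases before each start, with capitals marking a match to the AP-1 element TGANTCA, searched on both strands.
IL1RL1, start 102337257, chr2:102337007-102337256, plus strand: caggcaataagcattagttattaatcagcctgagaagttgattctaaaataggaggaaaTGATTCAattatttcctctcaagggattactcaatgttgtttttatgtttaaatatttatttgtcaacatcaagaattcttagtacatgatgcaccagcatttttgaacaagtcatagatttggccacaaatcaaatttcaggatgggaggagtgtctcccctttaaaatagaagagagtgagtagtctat
IL1RL1, start 102311563, chr2:102311313-102311562, plus strand: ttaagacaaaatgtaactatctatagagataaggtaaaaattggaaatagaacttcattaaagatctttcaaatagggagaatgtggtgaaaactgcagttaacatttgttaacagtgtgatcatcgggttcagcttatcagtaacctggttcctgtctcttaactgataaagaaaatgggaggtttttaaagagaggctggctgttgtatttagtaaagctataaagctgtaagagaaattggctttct
The downstream start has 1 AP-1 match, at -191 to -185, and the upstream start has no match. The other motifs searched were the glucocorticoid response element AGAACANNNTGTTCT and its core AGAACA, and the cyclic AMP response element TGACGTCA and its core TGACG. Neither IL1RL1 window held any of these. Over 35116 RefSeq promoters of the same length the AP-1 letters occurred in 6.57%, the full glucocorticoid element in 0.00285%, its core in 12.4%, the cyclic AMP element in 1.65% and its core in 21.2%. Cores also count inside full elements. Of the 9 genes with a promoter in the table, IL1R1 had 1 match to the glucocorticoid core at -107 to -102 before one of its starts, IL1A had TGACG and AP-1 letters, and IL1RN had 1 AP-1 match. TSLP had none of the motifs. A match, or its absence, describes the letters of these windows only.

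IL1R1, the signalling receptor of IL1A and IL1B, rose with budesonide and with both drugs at 2 and 6 h. At 6 h it read 4.03, 4.41, 3.79 and 3.12 with budesonide and 4.02, 4.26, 3.64 and 3.54 with both drugs. Formoterol gave 3.18, 2.63, 2.41 and 2.24, against 3.05, 2.88, 2.69 and 2.68 in untreated cells. All arrays of both budesonide-containing groups lay above all untreated arrays, and the formoterol arrays spread on either side of the untreated ones. The rise at 6 h was at least 1.01 with budesonide (adjusted p = 0.000967, 2.02-fold) and at least 1.04 with both drugs (adjusted p = 0.000492, 2.06-fold). Both drugs stood at least 1.25 above formoterol (adjusted p = 4.02e-05) and differed from budesonide by 0.03 (95% interval -0.44 to 0.50). The interaction of 0.24 did not pass (adjusted p = 1.0).

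At 2 h IL1R1 read 3.20, 4.09, 3.25 and 3.32 with budesonide, 3.07, 3.66, 3.17 and 2.65 with formoterol and 3.69, 4.01, 3.70 and 3.34 with both drugs, against 2.71, 2.90, 2.80 and 2.36 in untreated cells. Replicate 2 was the highest array in each of the 4 groups. Both drugs rose by at least 0.99 (adjusted p = 0.00185). Budesonide rose by at least 0.77 (adjusted p = 0.0465), a call lost without untreated replicate 1 (0.78), 2 (0.84), 3 (0.81) or 4 (0.66) and without budesonide replicate 2 (0.56) or 4 (0.82). Same-numbered arrays deviated together at 2 h, and with the replicate number as a block formoterol also passed, by at least 0.44 (adjusted p = 0.042, against 0.457 unblocked). With that block both drugs passed against formoterol, by 0.55 (adjusted p = 0.00712, against 0.326 unblocked).

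By 18 h the IL1R1 means were 2.85 with budesonide, 2.72 with formoterol and 3.01 with both drugs, against 2.82 in untreated cells, all below 3.02. Differences from untreated cells were 0.02 for budesonide (adjusted p = 0.968) and 0.19 for both drugs (adjusted p = 0.687). The test of a difference between the 4 times missed the threshold for budesonide (adjusted p = 0.0662, with 12.7% of all genes called), for formoterol (adjusted p = 0.693, with 4.51% called) and for both drugs (adjusted p = 0.0508). It passed with the replicate block, at an adjusted p of 6.27e-05 for budesonide and 5.9e-05 for both drugs. A second IL1R1 probe set lay below 3.02 in all 16 groups and had 0 of 24 drug comparisons past the threshold in limma, and 0 at an unadjusted p under 0.05. IL1R2, the decoy, had differences of -0.20 to 0.21 over the 24 drug comparisons, with 0 past the threshold and 0 at an unadjusted p under 0.05.

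TSLP, the alarmin that primes dendritic cells and innate lymphoid cells for allergic responses, rose with budesonide at 6 and 18 h. At 6 h it read 4.08, 4.70, 3.49 and 4.32 with budesonide, 3.49, 3.76, 3.41 and 3.28 with formoterol and 4.17, 3.98, 3.82 and 4.01 with both drugs, against 3.58, 3.44, 3.34 and 3.34 in untreated cells. The 4 arrays with both drugs lay above every untreated array, whereas 1 budesonide array, replicate 3, lay among the untreated ones. Budesonide raised it by 0.72 ± 0.19 (SE, adjusted p = 0.00538, 1.65-fold), a call lost without budesonide replicate 2 (0.54). Both drugs raised it by 0.57 (adjusted p = 0.0303), a call lost without untreated replicate 2 (0.57), 3 (0.54) or 4 (0.54) or combination replicate 1 (0.51), 2 (0.57) or 4 (0.56).

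At 18 h TSLP read 4.53, 4.60, 3.82 and 4.38 with budesonide, 3.89, 3.73, 3.46 and 3.53 with formoterol and 4.21, 4.76, 3.91 and 4.84 with both drugs, against 3.88, 3.87, 3.13 and 4.06 in untreated cells. Replicate 3 was the lowest array in each group, and the budesonide and untreated ranges overlapped. The differences from untreated cells were 0.60 with budesonide (adjusted p = 0.0213) and 0.70 with both drugs (adjusted p = 0.00514). Without untreated replicate 3 they were 0.40 and 0.50, and neither passed. The budesonide call was also lost without budesonide replicate 1 (0.53), 2 (0.51) or 4 (0.58). Same-numbered arrays deviated together in both comparisons, and both calls held with the replicate number as a block and all arrays kept. Both drugs exceeded formoterol by 0.78 (adjusted p = 0.00198), a call that held whichever single array was left out.

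Formoterol alone left TSLP at 3.48 at 6 h and 3.65 at 18 h, against 3.43 and 3.73 in untreated cells. Added to budesonide it gave a difference of -0.15 at 6 h (95% interval -0.54 to 0.24) and 0.10 at 18 h, neither of which passed. At 1 and 2 h the TSLP means lay between 3.29 and 3.58 in all groups. The other 2 TSLP probe sets lay below 3.02 in all groups and passed in 0 drug comparisons in limma, with 1 each at an unadjusted p under 0.05, so these rises rest on 1 probe set. Its levels lay under 4.63 in every group mean, inside the range of genes restricted to other tissues.

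IL1A, an alarmin stored in epithelial cells and active without cleavage, rose with both drugs at 1 h. It read 2.99, 2.81, 2.54 and 2.81 with budesonide, 2.64, 3.01, 3.23 and 2.92 with formoterol and 3.36, 3.36, 3.17 and 3.25 with both drugs, against 2.59, 2.72, 2.85 and 2.96 in untreated cells. The arrays with both drugs lay above all untreated and budesonide arrays and overlapped those with formoterol. The rise was at least 0.51 ± 0.13 over untreated cells (SE, adjusted p = 0.00966), lost without untreated replicate 1 (0.44), and at least 0.50 over budesonide (adjusted p = 0.0196, with 1.47% of all genes called), lost without budesonide replicate 3 (0.42) or combination replicate 1 (0.47) or 2 (0.47). Against formoterol the difference was at least 0.33 (adjusted p = 0.43, with 1.27% called). From 2 h on all IL1A means lay below 3.02, and the effect of both drugs differed between times (adjusted p = 0.0463), a call that was lost with quantile normalization repeated (adjusted p = 0.0508). The 1 group above the guide lay at 3.29.

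IL18, made as a precursor by resting epithelial cells, passed in 1 comparison. At 18 h it read 9.42, 9.41, 8.93 and 9.53 with both drugs, against 9.14, 8.85, 8.33 and 8.48 with formoterol, a difference of 0.62 ± 0.18 (SE, adjusted p = 0.00654, with 17.6% of all genes called), or 1.54-fold. The ranges overlapped, and the call was lost without formoterol replicate 3 (0.50). Budesonide gave 9.004 ± 0.11 and untreated cells 8.99 ± 0.35 (SD, n = 4 each), between these groups. Both drugs differed from untreated cells by 0.33 at 18 h (adjusted p = 0.198), where same-numbered arrays deviated together, and the adjusted p was 0.114 with the replicate block and 0.0486 with the block within each time.

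IL1B, the secreted ligand most tied to fever and acute inflammation, had group means of 3.83 to 4.29 and differences of -0.43 to 0.34 over the 24 drug comparisons, with 0 passing in limma and 1, the interaction at 2 h, at an unadjusted p under 0.05. At 18 h it averaged 3.83 ± 0.11 with budesonide and 4.12 ± 0.39 in untreated cells (SD, n = 4 each), a difference of -0.29 (adjusted p = 0.208). Without untreated replicate 3 that difference was -0.45 and passed (adjusted p = 0.0357). IL1RN, the receptor antagonist, had the narrowest range of the genes above 3.02, with group means of 3.92 to 4.07 and differences of -0.19 to 0.13. IL33 had differences of -0.21 to 0.20. For both, 0 of 24 drug comparisons passed in limma and 0 had an unadjusted p under 0.05. For IL33, IL1R2 and other genes at background, a missing call says nothing of whether the transcript changed.

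The surrounding pathway was followed in 4 lists, of which 48 of 49 genes had a probe set. The lists held co-receptors and other family ligands, inflammasome and processing genes, signalling proteins below the receptor, and the TSLP and colony-stimulating factor axis, and all 16 group means lay below 3.02 for 5 of 12, 3 of 11, 2 of 13 and 1 of 12 genes. Over the 48 genes budesonide raised 4 and lowered 4 after 6 h, and it raised 6 and lowered 5 after 18 h, where 14.2% and 18.3% of all genes were called. Both drugs raised 5 and lowered 5 after 6 h, and they raised 4 and lowered 5 after 18 h, where 18.6% and 21% of all genes were called. The balance at 6 h depended on the scaling. With arrays centred on their median it was 3 higher and 6 lower for budesonide and 5 higher and 8 lower for both drugs, and with quantile normalization repeated 4 and 5 for budesonide and 5 and 8 for both drugs. Without the 16 arrays of replicate 1 these counts were 4 and 2 and then 5 and 4 for budesonide, and 5 and 3 and then 3 and 3 for both drugs. The shares of all genes called with these other settings are not given here, so these counts are not read as a result. At 1 h 0 of 48 passed for either drug or both against untreated cells by limma's adjusted test, with 1 in each of these 3 comparisons at an unadjusted p under 0.05. Over all genes 0.998% were called for budesonide, 1.34% for formoterol and 2.76% for both drugs at 1 h. At 2 h budesonide lowered 1, formoterol raised 1 and lowered 1, and both drugs raised 2 and lowered 1. Over all genes 3.94%, 4.6% and 9.49% were called there, so these small counts are not read as a result about the pathway.

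Among processing genes, CASP1, the protease that matures IL18 and IL1B, had the largest rise. At 18 h it averaged 7.47 ± 0.13 with budesonide and 7.45 ± 0.13 with both drugs, against 5.44 ± 0.51 in untreated cells (SD, n = 4 each), rises of 2.03 and 2.01 (adjusted p = 4.7e-15 and 5.84e-15). At 6 h both drugs gave 6.70 against 5.63 in untreated cells, a rise of 1.07 (adjusted p = 1.19e-06). CASP4, the intracellular endotoxin sensor, rose by 0.61 with both drugs at 18 h (adjusted p = 4.06e-05). Of the 11 listed processing genes 2 rose and 1 fell with each of these treatments at 18 h, where 18.3% and 21% of all genes were called, with list medians of 0.05 and 0.06, against 0.03 over all genes in both. The 1 that fell was NLRP3, a sensor of the inflammasome, by 0.48 with budesonide (adjusted p = 0.0228) and by 0.44 with both drugs (adjusted p = 0.0355). For budesonide the call was lost without untreated replicate 2 or 3 or budesonide replicate 3 or 4, 4 of 8 such fits, which gave differences of -0.58 to -0.42. For both drugs it was lost without untreated replicate 1, 2 or 3 or combination replicate 1, 2 or 4, 6 of 8 fits, with differences of -0.52 to -0.40.

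On the TSLP axis, IL7R, which pairs with CRLF2 to bind TSLP, averaged 5.82 ± 0.12 with budesonide and 5.19 ± 0.34 with both drugs at 18 h, against 8.19 ± 0.24 in untreated cells (SD, n = 4 each). The differences were -2.37 with budesonide (adjusted p = 2.64e-07) and -3.01 with both drugs (adjusted p = 3.6e-10). JAK2, a kinase that several cytokine receptors use, rose at 6 h by 1.60 with budesonide (adjusted p = 4.88e-17) and 1.58 with both drugs (adjusted p = 3.79e-17), and at 18 h by 1.35 and 1.64. JAK1, the kinase bound to IL7R, rose at 6 h by 0.41 with budesonide and 0.39 with both drugs. Of 12 genes on this list JAK1, JAK2 and STAT5A, 3 in all, rose with budesonide at 6 h, while at 18 h JAK2 was the 1 that rose and IL7R the 1 that fell. Over all genes 14.2% were called with budesonide at 6 h and 18.3% at 18 h. Without the untreated array of replicate 3 at 6 h the STAT5A rise no longer passed, at 0.37 against 0.44 with all arrays.

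IL1RAP, the shared co-receptor of IL1R1 and IL1RL1, rose with formoterol at 2 h, to 8.71 ± 0.15 against 7.96 ± 0.18 in untreated cells (SD, n = 4 each), a difference of 0.75 ± 0.16 (SE, adjusted p = 0.000835). At 6 h it averaged 6.99 ± 0.13 with budesonide against 7.85 ± 0.23 in untreated cells, a difference of -0.86 (adjusted p = 3.1e-05). Without the arrays of replicate 1 the rise with formoterol was 0.69 (adjusted p = 0.0531). Its other 3 probe sets gave 0.02 to 0.30 with formoterol at 2 h and -0.32 to 0.08 with budesonide at 6 h and did not pass there, so these changes rest on the brightest probe set. IL18R1, a subunit of the IL18 receptor, rose by at least 0.50 with both drugs at 6 h (adjusted p = 0.000839).

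Below the receptor, PELI1, a ubiquitin ligase that acts on IRAK proteins, averaged 5.00 ± 0.10 with budesonide and 5.89 ± 0.11 in untreated cells at 2 h (SD, n = 4 each), a difference of -0.88 (adjusted p = 1.23e-08). It was also lower with budesonide at 6 h (-0.51) and 18 h (-0.68), and 3 of its 4 probe sets passed at 2 h. Its interaction at 2 h was 0.76 ± 0.16 (SE, adjusted p = 0.00387), the 1 of 48 that passed at that time. Over all genes 0.59% were called for that interaction. Without the arrays of replicate 1 the PELI1 interaction was 0.73 (adjusted p = 0.109). IRAK1, the kinase recruited by MYD88, differed from untreated cells at 18 h by -0.64 with budesonide (adjusted p = 0.000559) and by -0.68 with both drugs (adjusted p = 0.000204). TAB2, an adaptor of the TAK1 kinase, fell by 0.45 with both drugs at 6 h (adjusted p = 2.45e-10), while its other 3 probe sets gave -0.39 to -0.22 and did not pass. TRAF6, the ubiquitin ligase upstream of TAK1, rose by 0.34 with budesonide at 18 h (adjusted p = 0.0103), and with both drugs the difference there was 0.24 and did not pass (adjusted p = 0.0916).

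**Figure D4:**
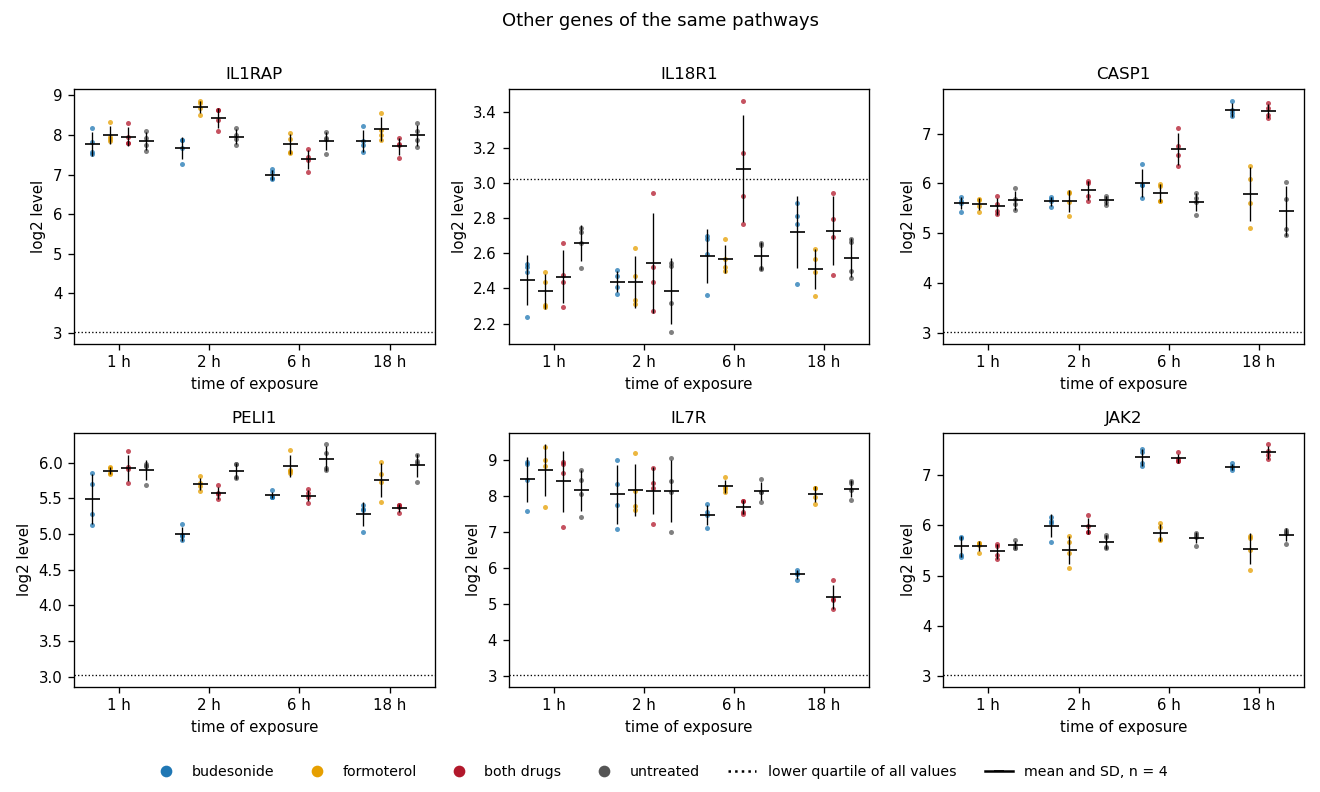
Log2 levels (y axis, with its own range in each panel) of IL1RAP, IL18R1, CASP1, PELI1, IL7R and JAK2 at each time (x axis) with budesonide, formoterol, both drugs and no drug. Coloured points are single arrays and black bars the mean and SD of 4 arrays; CASP1 averaged 7.47 with budesonide at 18 h, above its untreated level, and IL7R 5.19 with both drugs, below its untreated level.

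Other markers moved with the comparisons at 6 and 18 h, and with budesonide at 2 h. At 2 h the summed level of the 8 bronchial epithelial markers was 11.71 to 11.78 with budesonide, below 11.81 to 11.94 in untreated cells. Formoterol (11.70 to 11.935) and both drugs (11.74 to 11.88) overlapped the untreated range there. The summed level of the 8 bronchial epithelial markers at 18 h was 10.50 to 10.90 with budesonide, 11.63 to 11.93 with formoterol and 10.34 to 10.68 with both drugs, against 11.35 to 11.82 in untreated cells. At 6 h it was 11.06 to 11.38 with budesonide, 11.12 to 11.68 with formoterol and 11.14 to 11.23 with both drugs. Untreated cells had 11.39 to 11.78. At 6 and 18 h the budesonide and combination arrays, on which the IL1R1, TSLP and IL1RL1 calls at those times rest, lay below every untreated array. For budesonide at 6 h the margin was narrow (11.3839 against 11.3866). Most of this sum came from KRT18, whose group means ran from 9.95 to 11.38, so it says little of the dimmer epithelial markers. The summed level of the 5 mesenchymal markers at 18 h was 9.66 to 10.05 with budesonide and 9.96 to 10.34 with both drugs, against 9.62 to 9.97 in untreated cells, and at 6 h it was 9.43 to 9.68 with budesonide and 9.43 to 9.98 with both drugs, against 9.48 to 9.78. The summed 6 leukocyte markers lay at 6.17 to 6.48 with both drugs and 6.29 to 6.59 in untreated cells at 18 h. Most of that sum came from CD68, whose group means ran from 5.54 to 5.88. PTPRC, CD14, LYZ and the epithelial marker EPCAM lay below 3.02 in all groups, ITGAM in 11 groups and CD3E and CD68 in none. Fewer cells of a type and less RNA per cell cannot be told apart in these bulk samples, and the part of these markers in the results was not tested. The difference between 3' and 5' actin signals, which grows as RNA degrades, ran from 1.30 to 2.21 in replicate 1, the highest of the 4 arrays in 12 groups, and from 0.50 to 1.13 in replicate 4. In the other 4 groups, those at 2 h, replicate 3 was the highest, at 1.35 to 1.61. Leaving out replicate 1 therefore kept the array with the highest value in each 2 h group. Leaving out all replicate 1 arrays kept 16 of the 21 member calls. The calls lost were IL1R1 with budesonide at 2 h (0.87), TSLP with budesonide at 18 h (0.58) and both drugs at 6 h (0.56), IL1A with both drugs against untreated cells at 1 h (0.42) and IL1RL1 with both drugs against budesonide at 18 h (0.77).

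Genes whose 16 group means followed each changed gene most closely were found among 10998 genes with a group mean at or above 4.90. Pearson's r over 16 group means, which share cultures and times, is given as a description. For IL1RL1 these were PHLDB2 (0.93), PID1 (0.91) and PTPRG (0.90). PID1 averaged 8.92 with both drugs at 6 h, 6.34 with budesonide, 6.45 with formoterol and 5.67 in untreated cells, so its highest group was the same as that of IL1RL1. For IL1R1 they were UBE2QL1 (0.97), CCDC107 (0.94) and CLPTM1L (0.93), and for TSLP CDT1 (0.98), VPS35L (0.98) and TNS2 (0.97). For IL1A they were the chemokine CXCL2 (0.85), the stress transcription factor ATF3 (0.82) and OTUD1 (0.78), and for IL18 DAZAP2 (0.85), PKN2 (0.83) and AEBP2 (0.79). None of these likenesses was tested.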

How the data were processed

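Values are log2 expression per probe set, made by the authors with RMA (background correction, normalization and summary over probes) per the submitters' processing notes, version not given in the sources used here. There is no read depth, so precision depends on the number of arrays. Among 49395 probe sets, 44994 were annotated with 1 symbol, 1832 with several and 2569 with none, and only those with 1 were used. No pair of arrays held identical values.

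One model in limma 3.58.1 (R 4.3.3, data.table, version 1.17.8) held 16 group means with 48 residual degrees of freedom and an intensity trend. The 27 contrasts set treatments against untreated cells, the combination against either drug and untreated cells against 1 h, and took the interaction (combination minus both single drugs, plus untreated). Effects were compared between times with a moderated F test. P-values are two-sided, adjusted by Benjamini-Hochberg over 18132 genes, and called under 0.05. The script was tested on simulated data. Tables and figures used Python 3.11.15, pandas 2.3.3, numpy 2.4.6 and matplotlib 3.10.9.

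The genes and lists were chosen with earlier results of these data known, so no pattern counts as independent support. Named pathway genes had to pass a contrast and have a group mean above 3.02, and for each changed gene the 3 genes most alike by r were named. What replicates 1 to 4 share across groups is not stated in the labels. In 13 of 27 contrasts every same-numbered pair of arrays deviated together with a correlation above 0.1, including all 6 drug contrasts at 2 h; there the numbers pair the arrays. Alternatives were a replicate block, other normalizations, no dim genes, no trend, means of probe sets, the compared arrays alone, no replicate 1 and each array left out. IRAK4, listed with the signalling genes, was not analysed here. Sequences are from RefSeq's promoter table, GRCh38.p14; IL18 had no entry.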

Additional observations from a re-analysis of the deposited data

Results flagged for a closer look

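In 11 of 144 gene and group combinations, 1 of 4 arrays stood far from the other 3 relative to the group's range, where chance gives about 1 in 20 such groups. Replicate 4 was the distant array in 6 of them. It read 3.12 for IL1A with both drugs at 2 h, 3.78 for IL1B with both drugs at 18 h, 2.06 for IL1R2 with both drugs at 6 h and 2.13 for IL1R2 with budesonide at 2 h. In untreated cells it read 2.00 for IL33 at 1 h and 3.93 for IL1B at 6 h. Replicate 3 read 3.15 for TSLP with both drugs at 2 h, 2.32 for IL33 with budesonide at 1 h and 3.02 for TSLP in untreated cells at 1 h. Replicate 2 of budesonide at 2 h read 4.09 for IL1R1, and without it the rise of IL1R1 with budesonide at 2 h did not pass. Replicate 1 of untreated cells at 1 h read 3.32 for IL1RL1.

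The effect of both drugs differed between the 4 times for IL1RL1 (adjusted p = 7.47e-10 by limma's F test), for which the difference was largest at 6 h, and for IL1A (adjusted p = 0.0463), for which it was largest at 1 h and which missed the threshold with quantile normalization repeated (adjusted p = 0.0508). The interaction of the drugs on IL1RL1 also differed between times (adjusted p = 0.0141).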

How the results depend on the processing

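Of 21 member calls, 15 stayed past the threshold under each planned setting that gave a value, apart from single arrays left out, and 11 also with every single array left out; none changed direction in a planned setting. Leaving out genes dimmer than 4.90 everywhere kept only IL18 and IL1RL1 in the fit, with 9 calls. IL1RL1, with 8 of them, passed that filter only through both drugs at 6 h, so those calls do not count as support. Without this setting 15 calls held as well. With the dim genes left out, pairs called for budesonide against untreated cells were 1, for both drugs 2 and for both drugs against formoterol 3. With the compared arrays alone, or without the replicate 1 arrays, the budesonide count was 3. Leaving out 1 array at a time gave 3 to 5 calls for budesonide, 0 to 0 for formoterol, 6 to 7 for both drugs, 2 to 3 for both drugs against budesonide, 4 to 6 against formoterol, 1 to 1 for the interaction and 0 to 0 for untreated cells over time.

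With the replicate block, the formoterol count was 1 in place of 0, also with the block within each time, and all 21 calls held. For both drugs against formoterol at 6 h same-numbered arrays correlated at 0.07 at the lowest and 0.23 on average. Not every pair lay above 0.1, so the rule used here for pairing was missed. In that comparison TSLP (0.51, adjusted p = 0.0763) passed with the block (0.0226), the block within each time (0.0131) and centred arrays (0.0454). It also passed with the compared arrays alone (0.012) and without formoterol replicate 2 (0.0478). Treatment effects against untreated cells that differed between times numbered 2, and 6 with the block, 8 with the block within each time, 5 with centred arrays, 3 with quantile normalization repeated (IL1RL1, IL1R1 and TSLP, without IL1A) and 1 without dim genes. These counts leave out the interaction on IL1RL1, which passed in all these settings. Without dim genes the time effect and the interaction of IL1RL1 do not count as support. The gene passed that filter only through both drugs at 6 h. Over the 48 pathway genes at 6 h both drugs raised 6 and lowered 9 with the block. With the block within each time they raised 8 and lowered 12. The shares of all genes called with either block are not given here, so these higher counts are not read as a result about the pathway. Same-numbered arrays of both drugs and untreated cells at 6 h correlated at 0.0951 at the lowest and 0.21 on average. That falls just short of the rule that every such pair lie above 0.1. Apart from the time tests, TSLP at 6 h, IL1R1 at 2 h and IL18 at 18 h, the block changed no call of these 9 genes.

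Genes at background were 7 in place of 2 under either of the other guides. An alternative chosen after seeing the data took each other probe set alone. The second IL1R1 probe set gave -0.0801 for both drugs at 6 h. The IL1RL1 probe set of the membrane form gave -0.0712 for both drugs at 6 h, -0.21 against budesonide at 6 h, -0.0038 against formoterol at 18 h and an interaction of -0.12 at 6 h; the cause was not tested. IL1R1 with budesonide at 2 h missed the threshold with quantile normalization (0.74), no trend (0.77), mean probe sets (0.39) and the compared arrays alone (0.77), and TSLP with both drugs at 6 h with mean probe sets (0.25). IL1RL1 with budesonide at 18 h missed it with the compared arrays alone (0.51).

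Signal over background limits most of these genes, whose levels lie near 3.02. The 4 arrays per group limit small differences, and calls that rest on 1 array are given beside their results.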
